A study of Mus musculus with 9 samples.

Results

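Mouse embryonic stem (ES) cells carrying a knockdown of Yap1 were sequenced before and after differentiation, and the comparison of those libraries shows which genes were still higher or lower after differentiation when Yap1 RNA was depleted. The comparison rests on 2 of the series' 9 libraries: dESC_Yap1_KD, differentiated J1 ES cells with the Yap1 knockdown, and Yap1_KD, undifferentiated J1 ES cells with the same named knockdown. They are called the knockdown arm below. The control arm is dESC_control, the differentiated control of that knockdown, over KD_control, the undifferentiated control. All 4 groups were J1 cells (strain 129S4/SvJae, passages 5 to 7), and each had 1 library of polyadenylated RNA. The sources used here do not give the knockdown construct, what the control cells carried, or the medium and length of differentiation. Every gene row of the deposited FPKM table (fragments per kilobase of transcript per mega mapped fragments) entered except blank rows, symbols that had been turned into dates, and small RNA rows, which left 18336 of 18504 genes with a symbol. Of these, 12184 stood at 1 FPKM or more in dESC_Yap1_KD or Yap1_KD and were compared. Just inside that floor lay Rlbp1, with 0.782 FPKM in dESC_Yap1_KD and 1.005 in Yap1_KD, and just outside it Chrd, with 0.697 in dESC_Yap1_KD and 0.999 in Yap1_KD.

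Yap1 is a transcriptional coactivator without a DNA-binding domain of its own. It binds DNA through the TEAD factors, and the Hippo kinases Mst1/2 and Lats1/2 keep it out of the nucleus by phosphorylation. When mouse ES cells leave the naive state, they first lose factors such as Klf4 and Zfp42, pass through a formative, epiblast-like state marked by Fgf5, Pou3f1 and Dnmt3b, and may then switch on primitive streak genes such as T.

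Yap1 RNA was low in both knockdown libraries. It stood at 12.5 FPKM in dESC_Yap1_KD and 4.55 in Yap1_KD, against 78.0 in dESC_control and 37.4 in KD_control. The knockdown libraries therefore held 16.0% of the differentiated and 12.2% of the undifferentiated control level. Within each arm Yap1 was higher after differentiation, by a log2 ratio of 1.28 in the knockdown arm and 1.04 in the control arm, and differentiated knockdown cells still held less Yap1 RNA than undifferentiated control cells. Its paralog Wwtr1, also called TAZ, stood at 12.8 FPKM in dESC_Yap1_KD and 9.29 in Yap1_KD, against 27.2 in dESC_control and 9.18 in KD_control. The log2 ratio of Wwtr1 was 0.43 in the knockdown arm and 1.47 in the control arm.

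Depth, estimated from the steps between low FPKM values, was 13.1 M (mega) fragments in dESC_Yap1_KD, 18.0 in Yap1_KD, 19.3 in dESC_control and 22.4 in KD_control. For a transcript of 2 kb, 1 FPKM then equalled 26.3 fragments in the shallowest of these libraries and 44.8 in the deepest. With 1 library per group, a difference within an arm has no replicate check and carries no p-value. In the only group with 2 libraries, the library labelled Yap1_KO1 over the library labelled Yap1_KO2, 0.286% of 11201 genes were higher and 0.348% lower by 2-fold or more. Undifferentiated controls of different experiments lay further apart, with 2.65% of 11705 genes higher and 1.71% lower by 2-fold or more in KD_control over ESC, the control library of the knockout experiment. Log2 ratios were higher in transcripts of higher GC content, with a Spearman rho across genes of 0.170 in the knockdown arm (8295 genes) and 0.265 in the control arm. With that trend removed, 1134 genes were higher and 1280 lower in the knockdown arm by 2-fold or more.

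Differentiation was accompanied by large differences in the knockdown arm. On the scale of log2(FPKM + 1), 1242 genes (10.2% of 12184) were higher by 2-fold or more in dESC_Yap1_KD over Yap1_KD and 1227 (10.1%) lower by that fold. In the control arm, 1590 genes (12.9% of 12325) were higher and 1214 (9.85%) lower by 2-fold or more. The median log2 ratio over all genes compared was 0.0053 in the knockdown arm and 0.041 in the control arm. At each stage, fewer genes were that far apart between the knockdown library and its control. In undifferentiated cells, 24 genes (0.204% of 11755) were higher in Yap1_KD over KD_control and 29 (0.247%) lower. In differentiated cells, 181 genes (1.54% of 11751) were higher in dESC_Yap1_KD over dESC_control and 529 (4.5%) lower.

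**Figure D1:**
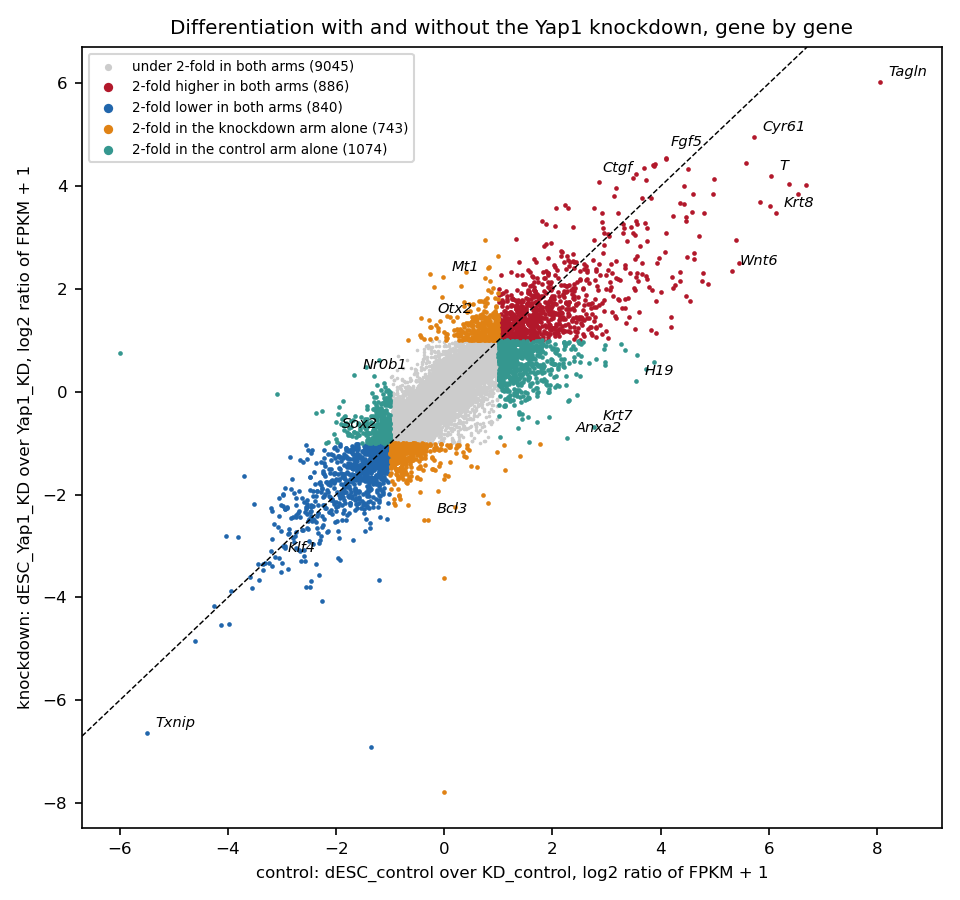
Log2 ratio of FPKM + 1 after differentiation in the knockdown arm (vertical) against the control arm (horizontal), 1 point per gene that reached 1 FPKM in any of the 4 libraries, 1 library per group; the dashed line marks equal ratios. Most genes lie along the line, with 886 higher and 840 lower by 2-fold or more in both arms, while Krt7, H19 and Anxa2 lie far below it and Mt1 and Otx2 above it.

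The arms share no library. Across the 12588 genes that reached 1 FPKM in any of the 4 libraries, their log2 ratios had a Pearson r of 0.858 and a Spearman rho of 0.862. This is a description across genes, which are not independent replicates, and all 4 libraries share the authors' normalization. Of the 1590 genes at least 2-fold higher in the control arm, 886 (55.7%, 95% Wilson interval 53.3% to 58.1%, for counting error alone) were also at least 2-fold higher in the knockdown arm. These 886 made up 71.3% of the 1242 genes at least 2-fold higher in the knockdown arm. Of the 1214 genes at least 2-fold lower in the control arm, 840 (69.2%, interval 66.5% to 71.7%) were also lower by that fold in the knockdown arm, and they made up 68.5% of its 1227 lower genes. Genes that missed 2-fold in the knockdown arm mostly kept the direction. Of the 1590, another 386 (24.3%) were 1.5- to 2-fold higher, 266 (16.7%) less than 1.5-fold higher, and 52 (3.27%) had the opposite sign. Only 4 of them, Folr1, Pdzk1ip1, Sct and Tgm1, were at least 2-fold lower in the knockdown arm. Of the 1214 genes lower by 2-fold in the control arm, 0 were at least 2-fold higher in the knockdown arm.

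**Figure D2:**
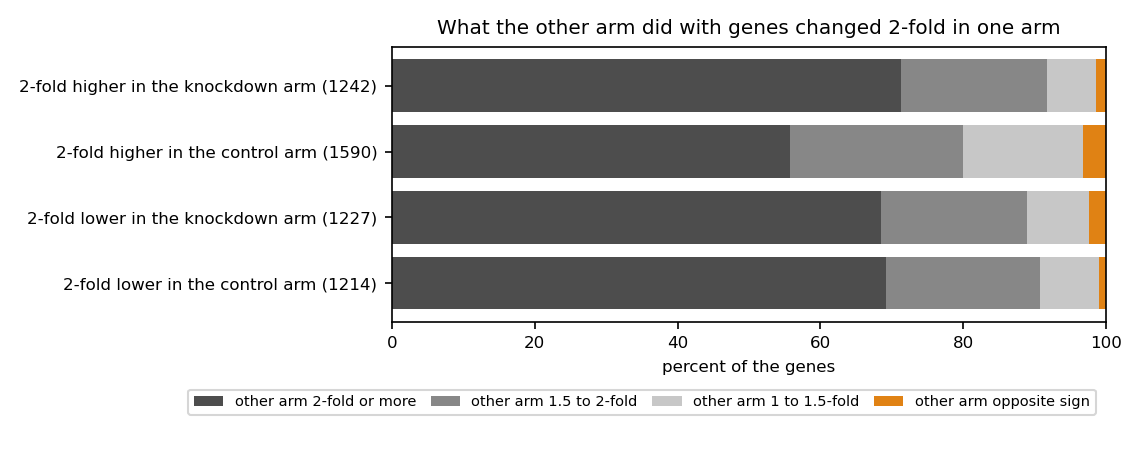
Percent of the genes at least 2-fold higher or lower in either arm (number of genes in brackets), by what the same genes did in the other arm. The dark segment, 2-fold or more in the same direction, covers 71.3% of genes higher in the knockdown arm, 55.7% of genes higher in the control arm, 68.5% of genes lower in the knockdown arm and 69.2% of genes lower in the control arm.

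How the size of the ratios compared between the arms depended on which arm chose the genes. Over the 1590 genes chosen as higher in the control arm, the median log2 ratio was 1.09 in the knockdown arm and 1.48 in the control arm, and 1278 of them had the smaller ratio in the knockdown arm. These genes were picked by their control ratio, so the reverse choice is given too. Over the 1242 genes chosen as higher in the knockdown arm, the medians were 1.38 in the knockdown arm and 1.42 in the control arm, and 574 of them had the smaller ratio in the knockdown arm. Among genes chosen as lower in the control arm the medians were -1.25 in the knockdown arm and -1.34 in the control arm, and among genes chosen as lower in the knockdown arm -1.36 in the knockdown arm and -1.23 in the control arm. In all, the knockdown ratio was below the control ratio by 1 or more on the log2 scale in 503 genes (4% of 12588) and above it by as much in 154 (1.22%).

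A test was possible only for what the arms had in common. limma was fitted to the 4 libraries with a term for the Yap1 state, which leaves 1 residual degree of freedom made of the unequal change between the arms, so it cannot test the difference between them. At a Benjamini-Hochberg adjusted p under 0.05, limma called 2918 genes (23.2% of 12588) that rose over both arms and 2702 (21.5%) that fell, and 7057 (56.1%) had an unadjusted p under 0.05. These calls included 1165 of the 1242 genes at least 2-fold higher in the knockdown arm and 1127 of the 1227 at least 2-fold lower. The limma change holds the knockdown ratio itself, so this overlap is no separate support. The calls depend on both undifferentiated libraries. Without a Yap1 term limma called 2751 and 2567 genes over the 4 libraries, but 0 and 0 when Yap1_KD was left out (3878 genes at an unadjusted p under 0.05) and 0 and 0 when KD_control was left out (4241 genes), since the spread then came from the differentiated libraries alone. Nothing in the labels says that the libraries came from separate cultures, so the p-values speak of the spread among these libraries only, which may be technical. Below, "rose" and "fell" are used of genes that passed this limma test over both arms, with log2 changes ± SE, and the ratios of each arm are given as values. Every list count below stands beside all-gene shares of 10.2% higher and 10.1% lower by 2-fold in the knockdown arm. For limma calls the shares are 23.2% risen and 21.5% fallen. A gene that passed the floor through 1 library alone had its direction set by the floor, so its call is descriptive. This holds also in lists where such genes are not named.

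Naive pluripotency genes were lower after differentiation under the knockdown. Of 16 such genes, all measured and all above the floor, 10 were lower and 0 higher by 2-fold or more in the knockdown arm, with a median log2 ratio of -1.45 against -1.66 for the same genes in the control arm; limma called 13 that fell. Klf4, a naive-state transcription factor downstream of LIF, stood at 5.83 FPKM in dESC_Yap1_KD and 63.4 in Yap1_KD, against 9.10 in dESC_control and 82.5 in KD_control. Both differentiated libraries lay far below both undifferentiated ones, and Klf4 fell by 3.14 ± 0.12 on the log2 scale (limma adjusted p = 0.00363). Zfp42, also called Rex1 and a standard marker of naive cells, stood at 98.3 FPKM in dESC_Yap1_KD and 456 in Yap1_KD, against 49.7 in dESC_control and 409 in KD_control. It fell by 2.61 ± 0.21 (limma adjusted p = 0.00552), and the differentiated knockdown library kept the higher level of the differentiated pair. Fbxo15, a target gene of Oct4 and Sox2, and Tcl1, an activator of Akt signalling, had log2 ratios of -2.32 and -2.46 in the knockdown arm and -2.69 and -2.83 in the control arm.

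Some naive genes kept most of their level in the knockdown arm. Esrrb, an orphan nuclear receptor of naive cells, stood at 86.9 FPKM in dESC_Yap1_KD and 122 in Yap1_KD, against 30.3 in dESC_control and 113 in KD_control. Its log2 ratio was -0.48 in the knockdown arm and -1.86 in the control arm. Nr0b1, also called Dax1 and a partner of Oct4, stood at 46.2 FPKM in dESC_Yap1_KD and 36.6 in Yap1_KD, against 11.5 in dESC_control and 38.8 in KD_control. Its ratio was positive in the knockdown arm, 0.33, and negative in the control arm, -1.67, and limma over both arms did not call it (adjusted p = 0.304). Set against the mean of the 7 undifferentiated libraries, the level of Nr0b1 in dESC_Yap1_KD gave a ratio of -0.59. Klf2 had ratios of -0.63 in the knockdown arm and -1.60 in the control arm. Tbx3 ran the other way, with -1.45 in the knockdown arm and -0.44 in the control arm. Over the list, 11 of 16 ratios were higher in the knockdown arm and 5 lower; the difference between the arms could not be tested.

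Of the core pluripotency factors, Pou5f1 (Oct4) stayed near its undifferentiated level. It stood at 1115 FPKM in dESC_Yap1_KD and 1261 in Yap1_KD, against 927 in dESC_control and 1138 in KD_control, and limma did not call it (adjusted p = 0.0902). Nanog stood at 97.0 FPKM in dESC_Yap1_KD and 318 in Yap1_KD, against 78.4 in dESC_control and 266 in KD_control, and fell by 1.73 ± 0.09 (limma adjusted p = 0.00399). Sox2, the partner of Oct4 on DNA, stood at 182 FPKM in dESC_Yap1_KD and 325 in Yap1_KD, against 76.3 in dESC_control and 317 in KD_control. Its log2 ratio was -0.83 in the knockdown arm and -2.04 in the control arm. Across the 13 core genes, the knockdown arm had 3 that were higher and 2 that were lower by 2-fold or more. The higher ones included the RNA-binding protein Lin28a, at 197 FPKM in dESC_Yap1_KD and 68.8 in Yap1_KD. Lin28a stood at 157 FPKM in ESC and 228 in Yap1_OE, so its ratio depends on the baseline. The median log2 ratio of the list was 0.23 in the knockdown arm and -0.085 against the mean of the 7 undifferentiated libraries.

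**Figure D3:**
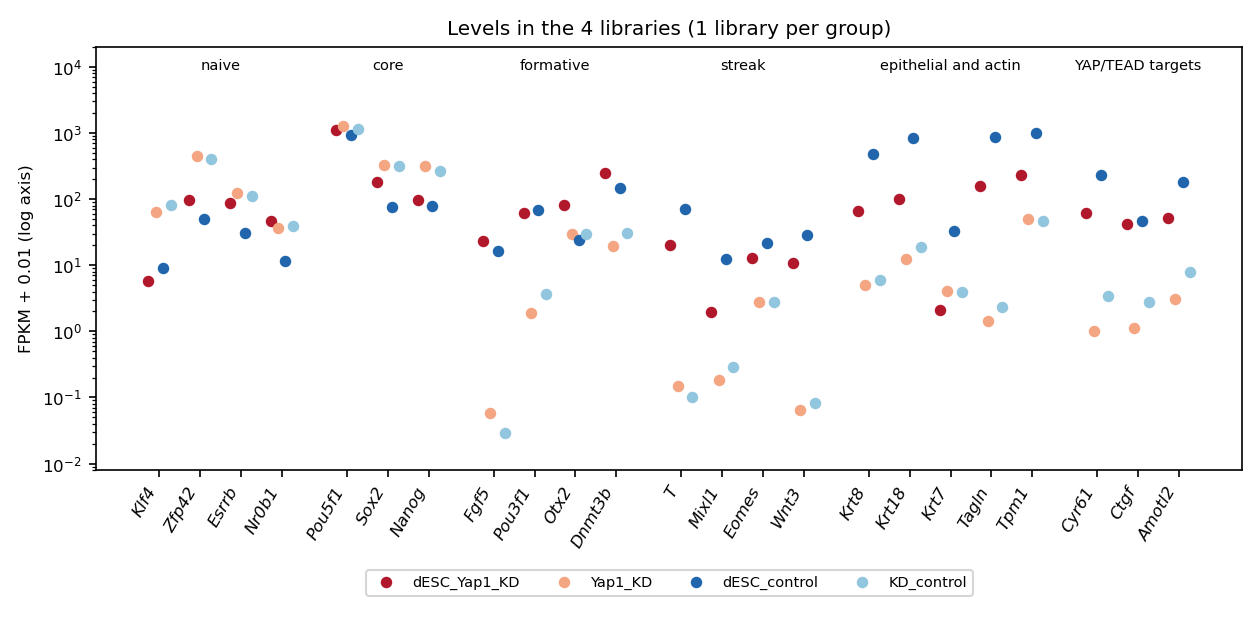
FPKM + 0.01 on a log axis for 23 genes in dESC_Yap1_KD, Yap1_KD, dESC_control and KD_control, 1 point per library. Klf4 and Zfp42 lie low and Fgf5, Pou3f1 and Dnmt3b high in both differentiated libraries, while Krt7 is at 33.1 FPKM in dESC_control and between 2.12 and 3.996 in the other libraries.

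Formative and primed epiblast genes were higher in the knockdown arm. All 16 listed genes passed the floor, 13 were higher and 0 lower by 2-fold or more, and the median log2 ratio was 2.03 in the knockdown arm against 1.29 for the same genes in the control arm. Fgf5 and Sox3 passed it only through dESC_Yap1_KD, so their place in that count is descriptive. limma called 10 that rose and 1 that fell. Fgf5, the growth factor that marks the early postimplantation epiblast, stood at 23.3 FPKM in dESC_Yap1_KD and 0.0474 in Yap1_KD, against 16.6 in dESC_control and 0.0191 in KD_control. It was under 0.05 FPKM in both undifferentiated libraries and rose by 4.32 ± 0.19 (limma adjusted p = 0.00364). Pou3f1 (Oct6), a POU factor of the epiblast, stood at 62.0 FPKM in dESC_Yap1_KD and 1.91 in Yap1_KD, against 67.6 in dESC_control and 3.60 in KD_control. Dnmt3b, a de novo DNA methyltransferase, stood at 250.3 FPKM in dESC_Yap1_KD and 19.3 in Yap1_KD, against 149 in dESC_control and 31.1 in KD_control, and rose by 2.93 ± 0.35 (limma adjusted p = 0.0082).

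Of the 16 formative genes, 15 had the larger ratio in the knockdown arm; the exception was Etv4, an ETS factor downstream of FGF, at -0.85 in the knockdown arm and -0.69 in the control arm. The 5 genes with the widest gap were Tcf15, Otx2, Dnmt3b, Dnmt3a and Foxd3, and all of these except Dnmt3b were below 0 in the control arm. Otx2, a homeobox factor of the formative transition, stood at 81.0 FPKM in dESC_Yap1_KD and 30.0 in Yap1_KD, against 24.0 in dESC_control and 29.3 in KD_control. Its log2 ratio was 1.40 in the knockdown arm and -0.27 in the control arm. Dnmt3a, the other catalytic de novo methyltransferase, stood at 35.3 FPKM in dESC_Yap1_KD and 14.3 in Yap1_KD, against 16.6 in dESC_control and 17.9 in KD_control. Foxd3, a forkhead factor of the epiblast, had ratios of 1.04 in the knockdown arm and -0.15 in the control arm. Tcf15, a bHLH factor of ES cells primed to leave the naive state, had ratios of 0.48 in the knockdown arm and -1.45 in the control arm. limma over both arms did not call Otx2, Dnmt3a, Foxd3 or Tcf15. The ratios of Dnmt3a, Foxd3 and Tcf15 depend on the baseline. In ESC, undifferentiated, these genes stood at 30.3, 45.3 and 149 FPKM, and in BirA at 25.2, 16.5 and 110. Foxd3 and Tcf15 stood at 23.3 and 83.8 FPKM in dESC_Yap1_KD. Dnmt3a and Foxd3 are counted among the genes at least 2-fold higher in the knockdown arm. Otx2 stood at 36.2 FPKM in BirA, its highest level among the undifferentiated libraries.

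Primitive streak genes were present in dESC_Yap1_KD at lower levels than in dESC_control. Of 22 listed and measured genes, 9 passed the floor in the knockdown arm, and since most passed it only through the differentiated library, their counts are descriptive. Among those 9, 7 were at least 2-fold higher, and their median log2 ratio was 1.88 in the knockdown arm and 3.37 in the control arm, with the smaller ratio in the knockdown arm for 9 of 9. T (Brachyury), the T-box factor of the streak, stood at 19.96 FPKM in dESC_Yap1_KD and 0.141 in Yap1_KD, against 70.7 in dESC_control and 0.0911 in KD_control. It rose by 5.12 ± 0.46 (limma adjusted p = 0.00594), and its level in dESC_Yap1_KD was 28.2% of that in dESC_control. Mixl1, a homeobox factor of the streak, stood at 1.95 FPKM in dESC_Yap1_KD and 0.175 in Yap1_KD, against 12.2 in dESC_control and 0.282 in KD_control. Eomes, a T-box factor of mesendoderm, had log2 ratios of 1.88 in the knockdown arm and 2.61 in the control arm. Mesp1, a factor of the first mesoderm, stayed under 1 FPKM in dESC_Yap1_KD, at 0.410, and stood at 5.09 FPKM in dESC_control. In these bulk libraries, fewer cells of a type and less RNA per cell cannot be told apart.

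Most Wnt ligands above the floor also stood lower in dESC_Yap1_KD than in dESC_control. Of 12 listed ligands 7 passed the floor in the knockdown arm, all 7 only through dESC_Yap1_KD, so their higher ratios follow from the floor and are descriptive. Their median log2 ratio was 2.08 in the knockdown arm and 3.34 in the control arm, with the smaller ratio in the knockdown arm for 6 of the 7. The exception was Wnt5a, at 1.65 FPKM in dESC_Yap1_KD and 0.265 in Yap1_KD, against 0.759 in dESC_control and 0.226 in KD_control. Wnt3, required for streak formation in the mouse embryo, stood at 10.7 FPKM in dESC_Yap1_KD and 0.0536 in Yap1_KD, against 28.7 in dESC_control and 0.0720 in KD_control. Wnt6 stood at 8.46 FPKM in dESC_Yap1_KD and 0.866 in Yap1_KD, against 78.0 in dESC_control and 0.990 in KD_control. Wnt8a lay closer in the differentiated libraries, at 6.25 FPKM in dESC_Yap1_KD and 6.97 in dESC_control. Of the genes that Wnt signalling induces, Axin2, its feedback inhibitor, rose by 2.67 ± 0.17 (limma adjusted p = 0.00433), and Sp5 had log2 ratios of 3.70 in the knockdown arm and 5.83 in the control arm. Over that list of Wnt targets and antagonists, 4 of 10 genes above the floor were at least 2-fold higher in the knockdown arm and 1, the antagonist Sfrp1, was lower by that fold.

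The BMP list had 6 of 10 genes at least 2-fold higher and 1 lower in the knockdown arm, with medians of 1.71 in the knockdown arm and 1.80 in the control arm. The Id genes encode dominant-negative HLH proteins that BMP induces. Id1 stood at 205 FPKM in dESC_Yap1_KD and 30.6 in Yap1_KD, against 221 in dESC_control and 28.0 in KD_control. Id3 had log2 ratios of 3.32 in the knockdown arm and 3.55 in the control arm, and Id2 had 3.03 and 3.04 in that order. The gap was wider for Id4, with 1.36 in the knockdown arm and 0.50 in the control arm, and for the homeobox gene Msx2, with 2.06 in the knockdown arm and 2.82 in the control arm. Nog, a secreted BMP antagonist, stayed under the floor in the knockdown arm, at 0.706 FPKM in dESC_Yap1_KD and 0.0606 in Yap1_KD, against 3.46 in dESC_control and 0.269 in KD_control. Msx1, a homeobox target of BMP, was at 22.9 FPKM in dESC_Yap1_KD and 26.1 in dESC_control and under 0.2 FPKM in both undifferentiated libraries, and it rose by 4.42 ± 0.16 (limma adjusted p = 0.00363). Bmp4 itself fell, with ratios of -1.21 in the knockdown arm and -1.46 in the control arm.

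FGF ligands and ERK feedback genes were higher in the knockdown arm in 9 of 15 cases and lower in 1, with a median log2 ratio of 1.15 in the knockdown arm and 0.48 in the control arm. The ERK phosphatases Dusp4 and Dusp6, which ERK signalling itself induces, rose by 3.92 ± 0.15 and 2.15 ± 0.11 (limma adjusted p = 0.00363 and 0.00366). Fgf4, the main FGF ligand of undifferentiated ES cells, stood at 46.2 FPKM in dESC_Yap1_KD and 102 in Yap1_KD, against 13.4 in dESC_control and 81.5 in KD_control. Nodal pathway genes had medians of 0.72 in the knockdown arm and 0.25 in the control arm, with 3 of 10 at least 2-fold higher and 1 lower in the knockdown arm. In that list Foxh1, the DNA-binding partner of Smad2, rose by 2.58 ± 0.16 (limma adjusted p = 0.00431). The coreceptor Tdgf1 (Cripto) fell, with log2 ratios of -1.98 in the knockdown arm and -1.92 in the control arm.

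Established targets of YAP and TEAD were also higher after differentiation of the knockdown cells. Of 23 listed targets, all measured, 20 passed the floor in the knockdown arm. Among these, 11 were at least 2-fold higher and 1, Myof, lower by that fold. Cyr61, Lats2, Crim1 and Tgfb2 passed the floor only through dESC_Yap1_KD, so their higher ratios follow from it and are descriptive. The median log2 ratio over the 20 was 1.09 in the knockdown arm and 2.27 in the control arm, and limma called 14 of 21 that rose and 1 that fell. The promoters of Cyr61, Amotl2 and Ajuba, which lead this list together with Ctgf and Igfbp3, are shown because each holds the TEAD core motif upstream of the gene start. The 250 bases before the start are given 5′ to 3′ on the gene's strand, from RefSeq on GRCm38.p6, another build than the mm9 of the expression table, with the motif CATTCC or its reverse complement GGAATG in capitals.
Cyr61 (Ccn1 in RefSeq, chr3:145649986-145650235, minus strand): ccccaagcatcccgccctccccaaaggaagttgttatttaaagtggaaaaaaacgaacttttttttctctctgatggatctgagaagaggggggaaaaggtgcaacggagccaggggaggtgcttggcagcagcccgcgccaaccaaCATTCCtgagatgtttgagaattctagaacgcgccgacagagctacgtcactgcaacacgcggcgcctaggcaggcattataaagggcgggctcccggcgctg
Amotl2 (chr9:102717554-102717803, plus strand): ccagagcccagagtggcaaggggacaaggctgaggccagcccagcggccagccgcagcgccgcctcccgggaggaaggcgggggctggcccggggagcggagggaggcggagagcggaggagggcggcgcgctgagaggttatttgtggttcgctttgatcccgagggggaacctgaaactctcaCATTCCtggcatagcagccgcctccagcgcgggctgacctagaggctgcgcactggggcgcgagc
Ajuba (chr14:54577662-54577911, minus strand): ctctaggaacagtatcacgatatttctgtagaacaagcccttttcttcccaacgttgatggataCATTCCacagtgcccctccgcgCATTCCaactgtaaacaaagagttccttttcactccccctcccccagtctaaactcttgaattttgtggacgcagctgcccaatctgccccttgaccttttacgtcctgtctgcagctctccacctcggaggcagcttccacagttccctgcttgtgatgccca
The motif lies 103 to 98 bases before the start in Cyr61 and 65 to 60 bases before it in Amotl2, while Ajuba holds 2 copies, at 186 to 181 and 164 to 159 bases. In RefSeq windows of 300 bases, reaching from 250 before to 50 after the start, the motif on either strand was found in 14.7% of all 32851 windows and 12.3% of 12802 windows of the genes compared. It was found in 16.7% of 933 windows of genes at least 2-fold higher in both arms, 19.03% of 331 windows of genes higher by that fold in the control arm and less than 1.5-fold higher in the knockdown arm, and 13.9% of 851 windows of genes at least 2-fold lower in both arms. It was found in 8 of 19 windows (42.1%) of the 17 targets that matched. A match is a description of letters and not a binding site.

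The level of Cyr61, a secreted matricellular protein, was 61.1 FPKM in dESC_Yap1_KD and 0.999 in Yap1_KD, against 231 in dESC_control and 3.38 in KD_control. The knockdown library was the lower at each stage, at 26.4% of dESC_control and 29.5% of KD_control, and Cyr61 rose by 5.34 ± 0.22 (limma adjusted p = 0.00363). Ctgf, of the same protein family, stood at 42.1 FPKM in dESC_Yap1_KD and 1.11 in Yap1_KD, against 47.4 in dESC_control and 2.73 in KD_control. In differentiated cells Ctgf was thus at 88.9% of the control level, and in undifferentiated cells at 40.8%. Amotl2, an angiomotin that binds Yap1, stood at 51.7 FPKM in dESC_Yap1_KD and 3.12 in Yap1_KD, against 179 in dESC_control and 7.78 in KD_control. Ajuba, a LIM protein that restrains Lats kinases, stood at 117 FPKM in dESC_Yap1_KD and 20.2 in Yap1_KD, against 202 in dESC_control and 32.9 in KD_control, with nearly equal log2 ratios of 2.48 in the knockdown arm and 2.58 in the control arm. Igfbp3, an IGF-binding protein, had ratios of 4.45 in the knockdown arm and 5.57 in the control arm.

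Some other listed targets were at least 2-fold higher after differentiation in the control arm alone. Axl, a receptor tyrosine kinase, stood at 0.885 FPKM in dESC_Yap1_KD and 1.67 in Yap1_KD, against 6.47 in dESC_control and 0.953 in KD_control. Gadd45b, a stress-induced protein, stood at 31.4 FPKM in dESC_Yap1_KD and 35.3 in Yap1_KD, against 119 in dESC_control and 23.3 in KD_control. Ankrd1, a muscle ankyrin repeat protein, stayed under the floor in the knockdown arm, at 0.366 FPKM in dESC_Yap1_KD and listed at 0 in Yap1_KD, while dESC_control stood at 3.31 FPKM. F3, tissue factor, had log2 ratios of -0.12 in the knockdown arm and 1.19 in the control arm. limma over both arms called none of Axl, Gadd45b, Ankrd1 and F3. Over the 20 targets above the floor, 17 had the smaller ratio in the knockdown arm and 3 the larger.

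**Figure D4:**
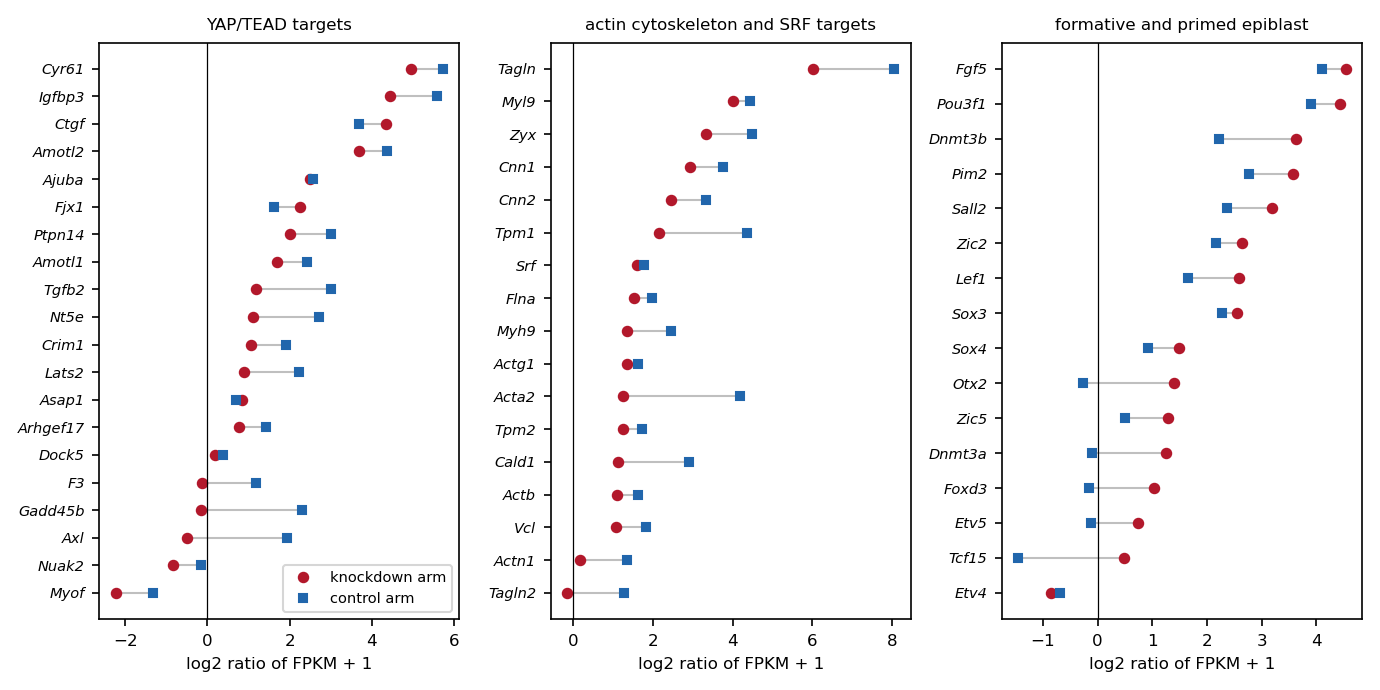
Log2 ratio of FPKM + 1 after differentiation in the knockdown arm (circles) and the control arm (squares) for the members above the floor of the YAP/TEAD target, actin cytoskeleton and formative lists, 1 library per group. In the target and actin lists most squares lie to the right of the circles, 17 of 20 and 17 of 17, and in the formative list 15 of 16 circles lie to the right of the squares.

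The Hippo pathway list, with the TEAD factors, had 4 of 18 genes at least 2-fold higher and 0 lower in the knockdown arm. The medians were 0.45 in the knockdown arm and 0.79 in the control arm. The higher genes include Yap1, the depleted gene itself. They also include Amot, which passed the floor only through dESC_Yap1_KD, so its place in this count is descriptive. Amot, an angiomotin, rose by 3.39 ± 0.36 (limma adjusted p = 0.00711). Tead3 stood at 7.25 FPKM in dESC_Yap1_KD and 1.08 in Yap1_KD, against 27.1 in dESC_control and 0.957 in KD_control. Tead2, the TEAD factor with the most RNA per length in these 4 libraries, stood at 161 FPKM in dESC_Yap1_KD and 74.2 in Yap1_KD, against 109 in dESC_control and 64.4 in KD_control. The upstream kinases Stk3 and Stk4 (Mst2 and Mst1), with ratios of 0.20 and 0.19 in the knockdown arm, were not called by limma.

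Actin cytoskeleton genes were higher after differentiation and less so under the knockdown. Of 18 listed genes, which include targets of the actin-regulated factor SRF, 17 passed the floor. In the knockdown arm 15 were at least 2-fold higher and 0 lower, and all 17 had the smaller ratio there, with medians of 1.35 in the knockdown arm and 2.44 in the control arm. Acta2, Myl9 and Cnn1 passed the floor only through dESC_Yap1_KD, so their place in this count is descriptive. Tagln (transgelin), an actin-binding protein of contractile cells, had the highest log2 ratio in the knockdown arm. It stood at 156 FPKM in dESC_Yap1_KD and 1.43 in Yap1_KD, against 881 in dESC_control and 2.31 in KD_control, and rose by 7.04 ± 0.50 (limma adjusted p = 0.00521). Tpm1, a tropomyosin, stood at 229 FPKM in dESC_Yap1_KD and 50.7 in Yap1_KD, against 985 in dESC_control and 47.3 in KD_control. Acta2, smooth muscle actin, stood at 1.39 FPKM in dESC_Yap1_KD and was listed at 0 in Yap1_KD, against 17.8 in dESC_control and 0.0354 in KD_control. Tagln2 had ratios of -0.16 in the knockdown arm and 1.28 in the control arm, and Srf itself had 1.61 and 1.76 in that order.

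Adhesion and matrix genes followed a similar pattern with smaller ratios. For integrins and focal adhesion, 5 of 15 genes above the floor were at least 2-fold higher and 1 lower in the knockdown arm, with medians of 0.55 in the knockdown arm and 1.22 in the control arm. The integrin Itga3 stood at 19.6 FPKM in dESC_Yap1_KD and 8.81 in Yap1_KD, against 104 in dESC_control and 14.0 in KD_control. For the extracellular matrix, 6 of 14 were at least 2-fold higher and 2 lower, with medians of 0.62 in the knockdown arm and 1.48 in the control arm. Thbs1, thrombospondin 1, stood at 15.6 FPKM in dESC_Yap1_KD and 0.0279 in Yap1_KD, against 106 in dESC_control and 0.0449 in KD_control. Sparc, a collagen-binding matrix protein, had a ratio of -0.02 in the knockdown arm and 1.71 in the control arm. Lama1 and Nid1, both basement membrane proteins, fell by 1.79 ± 0.19 and 1.64 ± 0.18 (limma adjusted p = 0.00745 and 0.00749).

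Keratins and epithelial junction genes showed wide gaps between the arms. Krt8 and Krt18, the paired keratins of simple epithelia, are counted in the trophoblast list. Krt8 stood at 65.3 FPKM in dESC_Yap1_KD and 4.98 in Yap1_KD, against 486 in dESC_control and 5.98 in KD_control. Krt18 stood at 102 FPKM in dESC_Yap1_KD and 12.2 in Yap1_KD, against 832 in dESC_control and 18.7 in KD_control. Both rose over both arms (limma adjusted p = 0.00964 and 0.0104), yet their levels in dESC_Yap1_KD were far below dESC_control. Of the 12 trophoblast genes above the floor, 6 were at least 2-fold higher and 0 lower in the knockdown arm, with medians of 0.70 in the knockdown arm and 2.83 in the control arm. Cdx2 and Gata3, counted among the higher ones, passed the floor only through dESC_Yap1_KD and are descriptive. The trophoblast factor Cdx2 stood at 3.97 FPKM in dESC_Yap1_KD and 6.87 in dESC_control, while the defining factor Elf5 was under 0.1 FPKM in all 4 libraries. Of 17 epithelial junction genes, 4 were higher and 1 lower by 2-fold or more in the knockdown arm, with medians of 0.67 in the knockdown arm and 1.21 in the control arm. Dsp, the desmosomal plaque protein desmoplakin, had ratios of 1.44 in the knockdown arm and 3.18 in the control arm. Grhl2, a transcription factor of epithelial cells, was nearly equal, with 2.13 in the knockdown arm and 1.92 in the control arm. In the list of regulators of the epithelial to mesenchymal transition, 5 of 10 were at least 2-fold higher and 0 lower in the knockdown arm. The medians were 1.12 in the knockdown arm and 1.23 in the control arm. Twist1 and Cdh2, counted among the higher ones, passed the floor only through dESC_Yap1_KD and are descriptive. Grhl2, of epithelial cells, is counted there too, so the count gives no direction of the transition.

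**Figure D5:**
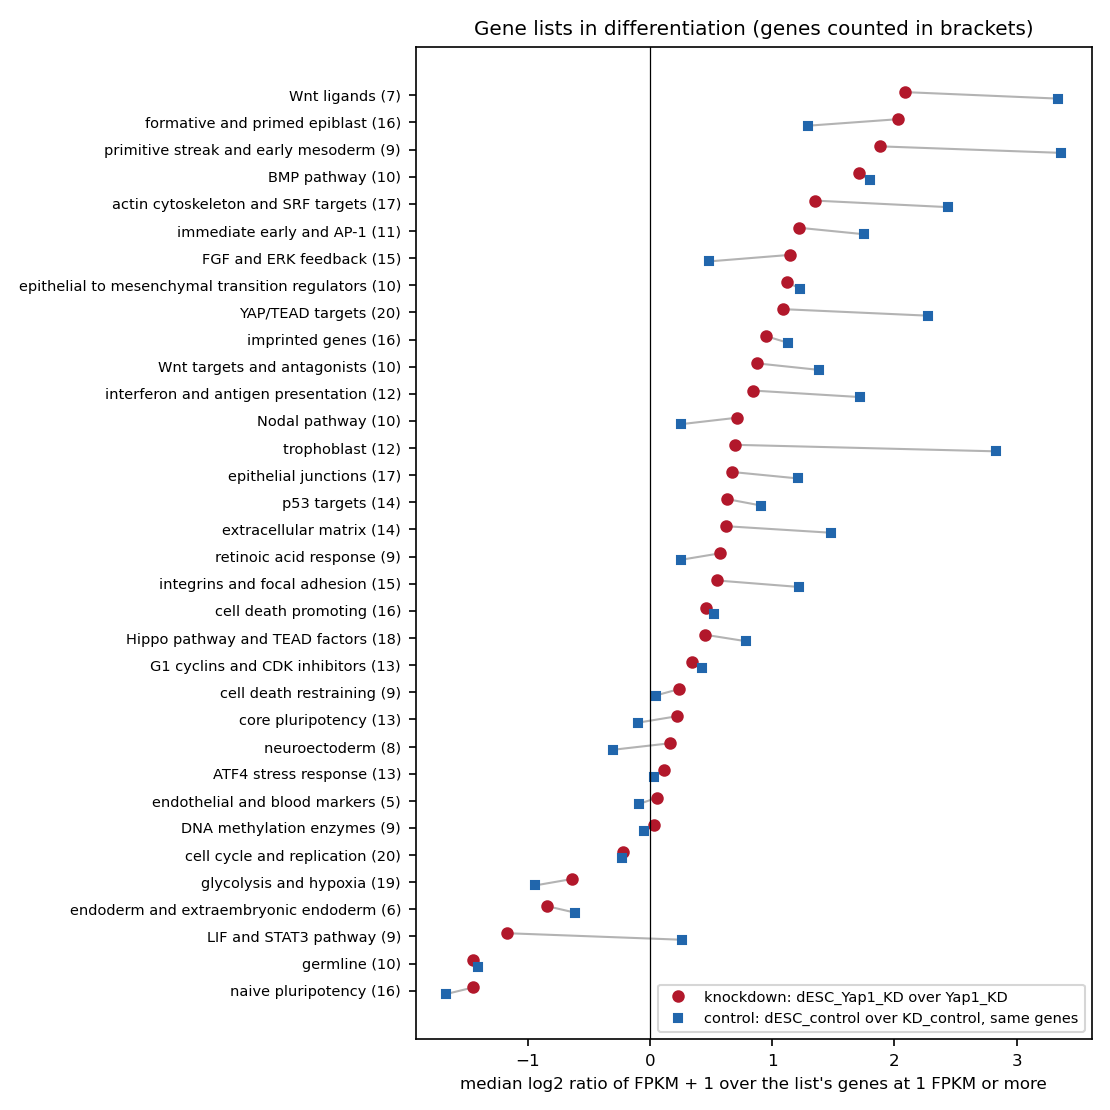
Median log2 ratio of FPKM + 1 after differentiation over each gene list's members at 1 FPKM or more in the knockdown arm (number in brackets), for the knockdown arm (circles) and for the same genes in the control arm (squares), 1 library per group. The squares exceed the circles most for trophoblast, streak, LIF and STAT3, Wnt ligand, YAP/TEAD target and actin lists, and the circles exceed the squares most for formative and FGF lists.

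Among the genes whose knockdown ratio lay furthest below the control ratio were Krt7, H19, Cryab, Anxa1, Anxa2, Wnt6 and Cd74. They were picked for that difference, so their values are a description. Krt7, a keratin of simple epithelia, stood at 2.12 FPKM in dESC_Yap1_KD and 3.996 in Yap1_KD, against 33.1 in dESC_control and 3.98 in KD_control. H19, an imprinted noncoding RNA next to Igf2, stood at 2.16 FPKM in dESC_Yap1_KD and 1.75 in Yap1_KD, against 50.5 in dESC_control and 3.39 in KD_control. Its ratio of 0.20 in the knockdown arm became -1.28 against the mean of the 7 undifferentiated libraries. Cryab, a small heat shock protein, stood at 3.65 FPKM in dESC_Yap1_KD and 2.10 in Yap1_KD, against 42.0 in dESC_control and 1.94 in KD_control. In these genes dESC_control stands apart, and the other 3 libraries lie close together. The annexins Anxa1 and Anxa2 bind membranes in a calcium-dependent way. Anxa2 stood at 20.8 FPKM in dESC_Yap1_KD and 39.6 in Yap1_KD, against 189 in dESC_control and 38.5 in KD_control.

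Igf2, the fetal growth factor, stood at 4.27 FPKM in dESC_Yap1_KD and 0.239 in Yap1_KD, against 36.3 in dESC_control and 0.273 in KD_control. Over the imprinted list, which also holds H19, 7 of 16 genes were higher and 2 lower by 2-fold or more in the knockdown arm, with medians of 0.95 in the knockdown arm and 1.13 in the control arm. Peg10, a retrotransposon-derived gene of the placenta, stood at 213 FPKM in dESC_Yap1_KD and 9.14 in Yap1_KD, against 429 in dESC_control and 28.2 in KD_control. It rose by 4.14 ± 0.16 (limma adjusted p = 0.00363), and its knockdown ratio, 4.40, was the larger of the pair. Meg3, a maternally expressed noncoding RNA, fell by 1.79 ± 0.14 (limma adjusted p = 0.00546). It stood at 6.48 FPKM in dESC_Yap1_KD and 27.6 in Yap1_KD, against 8.36 in dESC_control and 28.3 in KD_control. In other undifferentiated libraries Meg3 was near the differentiated level, at 5.61 FPKM in ESC and 6.54 in BirA, so its fall depends on the baseline.

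The 8 genes whose knockdown ratio lay furthest above the control ratio were Gm12669, Rims4, Mt1, Fgf15, Mt2, Snhg9, Nr0b1 and Pipox. The metallothioneins Mt1 and Mt2, which bind zinc and copper, were the most abundant of these. Mt1 stood at 868 FPKM in dESC_Yap1_KD and 184 in Yap1_KD, against 148 in dESC_control and 150 in KD_control. Mt2 stood at 659 FPKM in dESC_Yap1_KD and 83.8 in Yap1_KD, against 110 in dESC_control and 65.0 in KD_control. For both, dESC_Yap1_KD alone stands apart. Fgf15, an FGF ligand of the early embryo, stood at 18.7 FPKM in dESC_Yap1_KD and 3.80 in Yap1_KD, against 6.84 in dESC_control and 7.93 in KD_control. Rims4, a synaptic scaffold protein, had ratios of 2.29 in the knockdown arm and -0.26 in the control arm. Pipox, a peroxisomal oxidase, had -0.42 in the knockdown arm and -2.37 in the control arm, so most of its level remained in the knockdown arm. Snhg9 was listed at 0 in dESC_control and had 4.08 FPKM in dESC_Yap1_KD.

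Besides Tagln, Cyr61, Fgf5, Igfbp3, Pou3f1, Peg10, Ctgf, Msx1 and T, the 12 highest ratios of the knockdown arm among genes at 5 FPKM or more were those of Foxi3, Car4 and Fst. Foxi3, a forkhead factor of ectoderm, stood at 28.4 FPKM in dESC_Yap1_KD and 0.260 in Yap1_KD, against 25.6 in dESC_control and 0.545 in KD_control. Car4, a membrane-bound carbonic anhydrase, had ratios of 4.40 in the knockdown arm and 3.86 in the control arm. Fst (follistatin), an activin antagonist, had 4.24 and 3.55 in that order. limma called all 12 of these genes as risen over both arms. They were picked for their knockdown ratio, which is part of the limma change, so these calls add no separate support.

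On the lower side, Txnip, an inhibitor of thioredoxin and glucose uptake, stood at 1.97 FPKM in dESC_Yap1_KD and 293 in Yap1_KD, against 4.29 in dESC_control and 238 in KD_control, and fell by 6.06 ± 0.29 (limma adjusted p = 0.00366). The other lowest genes at 5 FPKM or more were Ndufa4l2, Khdc3, Stra8, Rpl39l, Gm9112, Inhbb, Calb2, Neat1, Pgam2 and Socs3, all called by limma as fallen over both arms. Their knockdown ratio, by which they were picked, is part of that limma change, so the calls add no separate support. Neat1 stood at 28.5 FPKM in Yap1_KD and 15.3 in KD_control, but at 1.51 in ESC and 2.92 in Yap1_OE. Khdc3, a maternal-effect gene of the oocyte, stood at 0.916 FPKM in dESC_Yap1_KD and 43.4 in Yap1_KD, against 0.789 in dESC_control and 30.2 in KD_control. Inhbb, the inhibin beta B chain, stood at 0.810 FPKM in dESC_Yap1_KD and 25.5 in Yap1_KD, against 0.348 in dESC_control and 19.7 in KD_control. Stra8, a retinoic acid-induced gene of germ cells, was listed at 0 in dESC_Yap1_KD and stood at 21.8 FPKM in Yap1_KD, against 0.0390 in dESC_control and 15.3 in KD_control. Serbp1 had the lowest ratio of all, but it was listed at 0 in dESC_Yap1_KD, dESC_control and KD_control and at 220.1 FPKM in Yap1_KD, which may be a failed estimate, and limma did not call it (adjusted p = 0.149).

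LIF and STAT3 pathway genes were lower in the knockdown arm. Of 10 listed genes 9 passed the floor, 5 were at least 2-fold lower and 1 higher, and the medians were -1.17 in the knockdown arm and 0.26 in the control arm. Socs3, the feedback inhibitor that STAT3 induces, stood at 1.70 FPKM in dESC_Yap1_KD and 33.4 in Yap1_KD, against 5.87 in dESC_control and 36.9 in KD_control, and fell by 3.07 ± 0.31 (limma adjusted p = 0.00702). Bcl3, an I-kappa-B protein induced by STAT3, stood at 2.36 FPKM in dESC_Yap1_KD and 17.9 in Yap1_KD, against 11.97 in dESC_control and 14.9 in KD_control. Stat3 stood at 8.11 FPKM in dESC_Yap1_KD and 25.7 in Yap1_KD, against 13.3 in dESC_control and 21.0 in KD_control. The kinase Pim1 had ratios of -1.17 in the knockdown arm and 0.34 in the control arm. limma called 3 of the 9 that fell, among them Lifr, the LIF receptor chain, and 1, Lif, that rose. Over all genes it called 21.5% that fell and 23.2% that rose. Bcl3 and Pim1 were not called.

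Glycolysis and hypoxia-response genes were lower after differentiation in both arms. Of 19 genes, 8 were at least 2-fold lower and 0 higher in the knockdown arm, with medians of -0.63 in the knockdown arm and -0.94 in the control arm, and limma called 14 that fell. Ndufa4l2, a hypoxia-induced mitochondrial protein, stood at 0.283 FPKM in dESC_Yap1_KD and 35.9 in Yap1_KD, against 0.322 in dESC_control and 31.3 in KD_control. Bnip3, a mitophagy receptor, stood at 6.58 FPKM in dESC_Yap1_KD and 51.9 in Yap1_KD, against 2.42 in dESC_control and 55.1 in KD_control. In some other undifferentiated libraries Bnip3 and Ndufa4l2 were lower, at 7.16 and 7.39 FPKM in ESC and 4.97 and 0.963 in Yap1_OE. In BirA, also undifferentiated, they stood at 30.2 and 29.0. The size of these ratios thus depends on which undifferentiated libraries are used. Aldoc, an aldolase, fell by 2.99 ± 0.13 (limma adjusted p = 0.00363). The glucose transporter Slc2a3 had ratios of -0.08 in the knockdown arm and 1.04 in the control arm. Germline genes were lower too, with 6 of 10 above the floor at least 2-fold lower and 1 higher in the knockdown arm, and medians of -1.45 in the knockdown arm and -1.40 in the control arm. The germ cell RNA-binding protein Dazl stood at 1.87 FPKM in dESC_Yap1_KD and 9.16 in Yap1_KD, against 0.718 in dESC_control and 4.85 in KD_control.

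Markers of other cell types and later lineages stayed mostly low. Of 23 measured Hox genes, 0 reached 1 FPKM in either library of the knockdown arm. Of 17 measured endoderm and extraembryonic endoderm genes, 6 passed the floor, 0 were at least 2-fold higher and 2 lower, and Sox17, Foxa2 and Gata6 stood under 0.5 FPKM in dESC_Yap1_KD and Yap1_KD. Of 20 neuroectoderm genes 8 passed, with 2 higher and 1 lower by 2-fold or more. The intermediate filament gene Nes stood at 28.6 FPKM in dESC_Yap1_KD and 1.61 in Yap1_KD, against 50.1 in dESC_control and 1.15 in KD_control, while Sox1 and Pax6 stayed under 1 FPKM in all 4 libraries. The summed level of 10 feeder fibroblast markers was 12.9 FPKM in dESC_Yap1_KD and 28.8 in Yap1_KD, against 17.2 in dESC_control and 26.7 in KD_control. In the knockdown arm most of it was Thy1, at 8.21 FPKM in dESC_Yap1_KD and 26.0 in Yap1_KD, but dESC_control held only 3.40. Dcn, Lum, Postn and Col3a1 were under 0.3 FPKM in all 4 libraries. Twist1, also on this list, rose by 1.77 ± 0.19 (limma adjusted p = 0.00739). Of 3 feeder markers above the floor in the knockdown arm, 1 was at least 2-fold higher and 2 lower. Of 5 in the control arm, 3 were higher and 1 lower by that fold. The summed level of 10 cardiomyocyte markers was 17.7 FPKM in dESC_Yap1_KD and 38.1 in Yap1_KD, against 13.2 in dESC_control and 26.96 in KD_control. In the knockdown arm most of it was the atrial light chain Myl7, at 11.9 FPKM in dESC_Yap1_KD and 25.03 in Yap1_KD, while dESC_control held 3.82. Cardiac actin (Actc1) went the other way, at 2.89 FPKM in dESC_Yap1_KD and listed at 0 in Yap1_KD, and rose by 2.18 ± 0.22 (limma adjusted p = 0.00692), while Tnnt2 was listed at 0 in both differentiated libraries. The summed level of 9 endothelial and blood markers was 19.5 FPKM in dESC_Yap1_KD and 42.4 in Yap1_KD, most of it Pecam1, and the leukocyte marker Ptprc was listed at 0 in all 4 libraries.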

How the data were processed

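Polyadenylated RNA of 9 J1 ES cell libraries in 8 groups was sequenced, and 1 table lists the level of each gene. The values are FPKM as the authors deposited them, made on mm9 with TopHat2 and Cuffdiff per the submitters' processing notes, which state no version, annotation or strandedness. The table does not name its unit, and FPKM was taken from Cuffdiff's output and from gene-dependent steps between low values. Libraries are scaled to each other by Cuffdiff, and a 0 can be a failed estimate, so such genes are given as listed at 0. Genes with near-identical copies and overlapping genes are uncertain.

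The table held 23277 rows, of which 4746 were blank, 27 had date-like symbols and 168 were small RNAs by symbol (Mir, Snor, Rnu, Scarna). Small RNAs by symbol took 19.7% of the summed FPKM in dESC_Yap1_KD and 23.6% in Yap1_KD, against 19.9% in dESC_control and 20.3% in KD_control. Log2 ratios of FPKM + 1 were computed for genes that reached 1 FPKM in either library of a comparison, so ratios of low genes are understated. Calls on single libraries are counts at 2-fold or more. The 4-library fit used limma (version 3.58.1, R 4.3.3) with trend, a term for the Yap1 state and Benjamini-Hochberg adjustment at 0.05, and was tested on simulated data. Depth was read from the most common ratio of low values between a library and BirA, scaled on 138 genes with quartiles of 13.0 to 14.8 M fragments for BirA. Intervals cover counting error alone.

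The genes, the comparison and all 37 lists were chosen with earlier results of these data known. Named genes are the 12 highest and 12 lowest ratios of the knockdown arm among genes at 5 FPKM or more, the 8 largest differences between the arms each way, up to 4 members of each list with the largest ratio, and 13 genes fixed by name. A gene listed at 0 in a library that a ranking uses, while at 5 FPKM or more in another library of the same state, was left out of it; for the ratios of the knockdown arm this covers its own 2 libraries, so Serbp1, listed at 0 in KD_control, stayed in. Further list members were named after their values were seen to show how a list varied, as were Folr1, Pdzk1ip1, Sct and Tgm1. 1 gene of these rankings is not reported here. Promoters came from RefSeq (GRCm38.p6), and transcript GC content from a GRCm38 annotation, for 99.4% of the genes compared.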

Additional observations from a re-analysis of the deposited data

Results flagged for a closer look

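In 7 genes the arms moved in opposite directions, at least 2-fold in both or, among genes named for their difference, by 1.5-fold or more in both. The difference was not tested in any of them, since each arm has 1 library per stage. The values are log2 ratios of the knockdown arm minus those of the control arm. Krt7 had a difference of -3.46, with ratios of -0.68 in the knockdown arm and 2.78 in the control arm. Anxa2 had -3.17, with -0.90 in the knockdown arm and 2.27 in the control arm. Cd74, the invariant chain of MHC class II, had -2.96 and stood at 1.47 FPKM in dESC_Yap1_KD and 10.1 in Yap1_KD, against 13.5 in dESC_control and 7.31 in KD_control. Folr1, a folate receptor, had -2.78 and stood at 5.12 FPKM in dESC_Yap1_KD and 11.4 in Yap1_KD, against 47.0 in dESC_control and 13.2 in KD_control. Tgm1, an epidermal transglutaminase, had -2.64 and stood at 2.02 FPKM in dESC_Yap1_KD and 7.63 in Yap1_KD, against 36.4 in dESC_control and 16.1 in KD_control. Sct, the hormone secretin, had -2.65 at levels under 5 FPKM in all 4 libraries. Pdzk1ip1, a small membrane protein, had -2.14 at levels under 3 FPKM.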

How the results depend on the processing

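No paired analysis was possible because each group of the comparison has 1 library and the labels give only the number 1. The counts of the knockdown arm depend on the fold and the pseudocount. Against 1242 higher and 1227 lower genes, there were 2651 and 2574 at 1.5-fold, 414 and 413 at 3-fold, and 478 and 416 with a pseudocount of 5. A filter at 5 FPKM left 813 lower genes, and the mean of the 7 undifferentiated libraries as baseline gave 838 higher and 643 lower genes. The share of control-arm genes that passed in the knockdown arm was 67.4% for higher and 73.6% for lower genes with a pseudocount of 0.1, 46.3% and 64.9% with 5, 70.0% and 73.5% at 1.5-fold, and 45.5% and 64.6% at 3-fold. It was 60.9% for higher genes with a filter at 5 FPKM, and 66.4% for lower genes with libraries rescaled to the same FPKM sum. limma without a Yap1 term and with 1 library left out called 0 to 3595 genes that rose and 0 to 3140 that fell. The lone library of a stage is then assumed to vary like the pair of the other stage.

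The feeder fibroblast list changed sign with no filter, to a median of 0.054, as genes near 0 entered. With the mean of the 7 undifferentiated libraries as baseline, the log2 ratio of Yap1 became -1.56, since 6 of those libraries hold no knockdown, and those of Myl7 and Snhg9 became 0.044 and 0.053; the cause was not tested for the last 2. Among ratios under 2-fold, those of H19, Nr0b1 and Anxa1 also changed sign with that baseline, to -1.28, -0.59 and -0.028. So did the medians of the core pluripotency list, to -0.085, and of the retinoic acid list, to -0.014. The medians of the DNA methylation, death-restraining, and endothelial and blood lists became -0.14, -0.033 and -0.21. Of all values of named genes under the alternatives, 1320 stayed within 0.270 on the log2 scale of the main value. Another 316 moved further and 3 reversed. The 0.270 is the SD over genes between the libraries labelled Yap1_KO1 and Yap1_KO2. Many of the 1320 could not move, since another floor, small RNA rows kept or doubtful zeros left out cannot change a gene's ratio. Of 164 named genes, 116 moved with a pseudocount of 5 and 81 with 0.1. With the mean of the 7 undifferentiated libraries, 103 moved and 3 reversed. Of the list medians, 286 stayed, 72 moved and 1 reversed. The Hox list gave no value, nor did the endoderm list at 5 FPKM. Depth limits genes near 1 FPKM most in dESC_Yap1_KD, where that level of a 2 kb transcript rests on 26.3 fragments.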

Other observations

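Genes of the cell cycle and replication list differed little in the knockdown arm, while some G1 cyclin and Myc genes were higher. Of 20 cell cycle and replication genes, 0 were 2-fold apart, with medians of -0.22 in the knockdown arm and -0.23 in the control arm; limma called 7 that fell, among them the mitotic cyclin Ccnb2, and 1 that rose. Among G1 cyclins and CDK inhibitors, 4 of 13 genes were higher and 0 lower by 2-fold or more in the knockdown arm. In that list limma called 7 that rose and 3 that fell. Cyclin D1 (Ccnd1) stood at 83.6 FPKM in dESC_Yap1_KD and 21.8 in Yap1_KD, against 87.9 in dESC_control and 27.2 in KD_control. In other undifferentiated libraries Ccnd1 stood at 73.4 FPKM in ESC, 67.9 in Yap1_OE and 39.8 in BirA, so its ratio depends on the baseline. Mycn stood at 142 FPKM in dESC_Yap1_KD and 50.5 in Yap1_KD, against 81.7 in dESC_control and 54.0 in KD_control. Its level was 104 FPKM in ESC and 245 in Yap1_OE, both undifferentiated. Of 14 p53 targets, 5 were at least 2-fold higher and 1 lower in the knockdown arm, with medians of 0.63 in the knockdown arm and 0.91 in the control arm. Of 16 genes that promote cell death above the floor, 3 were at least 2-fold higher and 1 lower, with medians of 0.46 in the knockdown arm and 0.53 in the control arm. Of 9 that restrain it, 2 were higher and 1 lower by that fold. Over all genes compared, 10.2% were higher and 10.1% lower by 2-fold or more, so counts in such short lists are descriptive. Bcl2 rose by 1.37 ± 0.21 (limma adjusted p = 0.0123). Of 13 ATF4 stress response genes, 2 were higher and 0 lower by 2-fold, with medians of 0.11 in the knockdown arm and 0.04 in the control arm.

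Immediate early and AP-1 genes had 6 of 11 members above the floor at least 2-fold higher and 1 lower in the knockdown arm, with medians of 1.22 in the knockdown arm and 1.76 in the control arm. Jun rose by 3.16 ± 0.17 (limma adjusted p = 0.00399), and Ier3 stood at 3.63 FPKM in dESC_Yap1_KD and 20.9 in Yap1_KD, against 22.4 in dESC_control and 19.3 in KD_control. Interferon and antigen presentation genes had 5 of 12 higher and 2 lower by 2-fold or more, with medians of 0.84 in the knockdown arm and 1.72 in the control arm. The immunoproteasome subunit Psmb8 stood at 23.6 FPKM in dESC_Yap1_KD and 0.716 in Yap1_KD, against 42.1 in dESC_control and 0.371 in KD_control. Of 9 DNA methylation enzymes, 2 were higher and 2 lower by 2-fold or more. The DNA demethylase Tet2 stood at 1.53 FPKM in dESC_Yap1_KD and 19.2 in Yap1_KD, against 1.34 in dESC_control and 17.0 in KD_control. Of 9 retinoic acid response genes above the floor, 2 were higher and 2 lower by 2-fold or more, with medians of 0.57 in the knockdown arm and 0.25 in the control arm. The binding protein Crabp1 fell by 2.83 ± 0.15 (limma adjusted p = 0.00399).

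Like Serbp1, Tpm3 and AF357399 were listed at 0 in a differentiated library beside high values in others. Tpm3, a tropomyosin, was listed at 0 in dESC_control and stood at 87.4 FPKM in dESC_Yap1_KD and 51.2 in Yap1_KD. The row AF357399 was listed at 0 in dESC_Yap1_KD and stood at 119 FPKM in Yap1_KD, against 112 in dESC_control and 288 in KD_control.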
